A study of Mus musculus with 18 samples.

Results

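The smooth muscle contractile genes described here are 10 genes, Myocd, Acta2, Actg2, Myh11, Mylk, Cnn1, Tagln, Smtn, Lmod1 and Des, of 18193 genes tested. They were found by symbol, as the probe sets (groups of array probes for one transcript) that carry only the symbol of a listed gene. All 10 were measured, by 17 probe sets, and for each gene the probe set with the highest mean was used and the other 7 served as a check. The samples were lungs and lung tumors of B6C3F1/N mice, measured on Affymetrix 3-prime expression arrays, one array per sample. The control group was 6 samples of normal lung from vehicle-exposed mice. The spontaneous group was 6 lung tumors labelled as spontaneous, and the treated group was 6 lung tumors from mice exposed to antimony trioxide aerosol. The study began at an age of 5 to 6 weeks, and exposure at 0, 3, 10 or 30 mg/m3 ran 6 hours and 12 minutes a day on 5 days a week for up to 105 weeks. The labels do not give a sample's animal, sex, age at death or exposure concentration, so the p-values measure only the spread between these samples. Tumors were cut out of the surrounding lung, whereas the control samples were normal lung that can hold airways and large vessels.

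Smooth muscle cells surround the airways and the arteries and veins of the lung, and contract when calcium-activated myosin light chain kinase phosphorylates the light chains of smooth muscle myosin, which then pulls on actin filaments. Their contractile proteins are encoded by genes that serum response factor, Srf, turns on together with its coactivator myocardin. These genes are the usual markers of differentiated smooth muscle, and some, Acta2 above all, are also made by myofibroblasts and pericytes, the contractile cells around capillaries. In bulk tissue, fewer cells of a type and less RNA per cell cannot be told apart.

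Serum response factor binds the CArG box, in which CC and GG flank 6 bases that are all A or T. The RefSeq promoter table of the mouse assembly GRCm38.p6 held windows for 6 of the 10 genes, Acta2, Mylk, Cnn1, Smtn, Lmod1 and Des, and not for Myocd, Actg2, Myh11 or Tagln. None of the 250-base stretches upstream of these 6 start sites contained a CArG box, which stood in 1.47% of 32851 such windows of all genes. A looser form, in which at most 1 of the 6 inner bases is C or G, was searched after that result was seen and stood in 8.59% of all windows. Both patterns read the same on either strand, so 1 search covers both. The looser form occurred in 1 of the 6 genes, Acta2, at positions -84 to -75 and -34 to -25 from the annotated start. A match is a description of these letters and not evidence of binding, and its absence says only that the letters are not in this window. The Acta2 stretch is shown because it holds both matches, in capitals, and the Cnn1 and Mylk stretches because Cnn1 had the largest and Mylk the smallest difference between tumor and control among the 6 genes. They lie at chr19:34255374-34255623 on the minus strand, chr9:22099003-22099252 on the plus strand and chr16:34784700-34784949 on the plus strand.
Acta2: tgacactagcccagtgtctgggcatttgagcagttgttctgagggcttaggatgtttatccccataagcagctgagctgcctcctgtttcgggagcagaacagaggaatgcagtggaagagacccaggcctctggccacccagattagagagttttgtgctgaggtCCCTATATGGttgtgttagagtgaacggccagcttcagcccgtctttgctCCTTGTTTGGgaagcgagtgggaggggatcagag
Cnn1: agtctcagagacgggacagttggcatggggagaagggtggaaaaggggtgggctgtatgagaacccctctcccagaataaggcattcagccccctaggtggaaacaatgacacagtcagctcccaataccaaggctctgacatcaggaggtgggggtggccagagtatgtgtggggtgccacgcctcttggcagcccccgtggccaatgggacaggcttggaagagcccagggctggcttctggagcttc
Mylk: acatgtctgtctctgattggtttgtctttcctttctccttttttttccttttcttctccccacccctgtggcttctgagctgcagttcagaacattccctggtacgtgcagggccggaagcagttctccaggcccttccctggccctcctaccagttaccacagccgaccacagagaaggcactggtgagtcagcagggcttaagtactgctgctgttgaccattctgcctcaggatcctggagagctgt

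The values are log2 intensities, on which 1 unit is a doubling. They can be compared between samples for a gene but not between genes. Control 5 and spontaneous tumors 5 and 6 stood apart from the other 15 arrays and were left out. Their median correlation with the other arrays was 0.30 to 0.48, against 0.92 to 0.97 for the 15, and the standard deviation (SD) of all their values was 1.27 to 1.48 against 2.35 to 2.45. Unless all 18 arrays are named, values below are over 5 control, 4 spontaneous and 6 treated samples. On these 15, the Gapdh 3-prime minus 5-prime difference, a measure of RNA integrity, was 1.84 to 2.21 in controls, 1.11 to 1.40 in spontaneous and 1.09 to 1.97 in treated tumors. The bioB hybridization spike read 10.81 to 11.40 in controls and 10.31 to 10.75 in the tumors, and the part of these differences in the results was not tested. Sftpc, named after its values were seen, is the surfactant gene that marks alveolar type 2 cells and so lung tissue. It had a mean of 14.22 in controls, 14.21 in spontaneous and 14.24 in treated tumors. Of the 9 alveolar type 2 markers given below, 7 were higher in each tumor group. Sftpc alone thus does not show an equal share of these cells. Changes are log2 differences of tumor minus control ± standard error (SE) by limma, with spontaneous tumors first where a pair is given. A gene is said to have risen or fallen where the Benjamini-Hochberg adjusted p over all genes was under 0.05.

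Smooth muscle contractile genes were lower in both kinds of tumor. Of the 10, 9 fell in spontaneous tumors and 10 in treated tumors. Between treated and spontaneous tumors 0 of 10 differed, where only 0.055% of all genes did. Lower calls made up 12.9% of all genes in spontaneous tumors and 15% in treated tumors. None of the 10 rose, where higher calls made up 20.1% and 23.8% of all genes. The median change of the 10 genes was -2.01 in spontaneous and -2.05 in treated tumors, where the median over all genes was 0.12 and 0.089. With the probe sets of a gene averaged, the median change of the 10 was -1.26 and -1.33. That average gives equal weight to dim probe sets, such as the second one of Des. Tumor and control samples did not overlap for 8 genes in spontaneous tumors, where 11.4% of all genes were lower without overlap, and for 7 in treated tumors, where 10.1% were. The size of the change varied widely among the genes, from Myh11 with more than 4 log2 units to Mylk with less than 0.5. Over all 18 arrays limma called 5 of the 10 in spontaneous tumors, namely Myh11, Cnn1, Tagln, Smtn and Des. Over the same 18 it called 6 in treated tumors, namely Myh11, Cnn1, Smtn, Des, Actg2 and Myocd. With the actin 3-prime minus 5-prime difference, another measure of RNA integrity, as a covariate over the 15 arrays, 8 and 10 genes were called. That actin difference was -0.24 to -0.17 in controls, -0.38 to -0.23 in spontaneous and -0.33 to -0.17 in treated tumors. A fit with it does not adjust for the Gapdh difference given above, whose part was not tested.

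**Figure D1:**
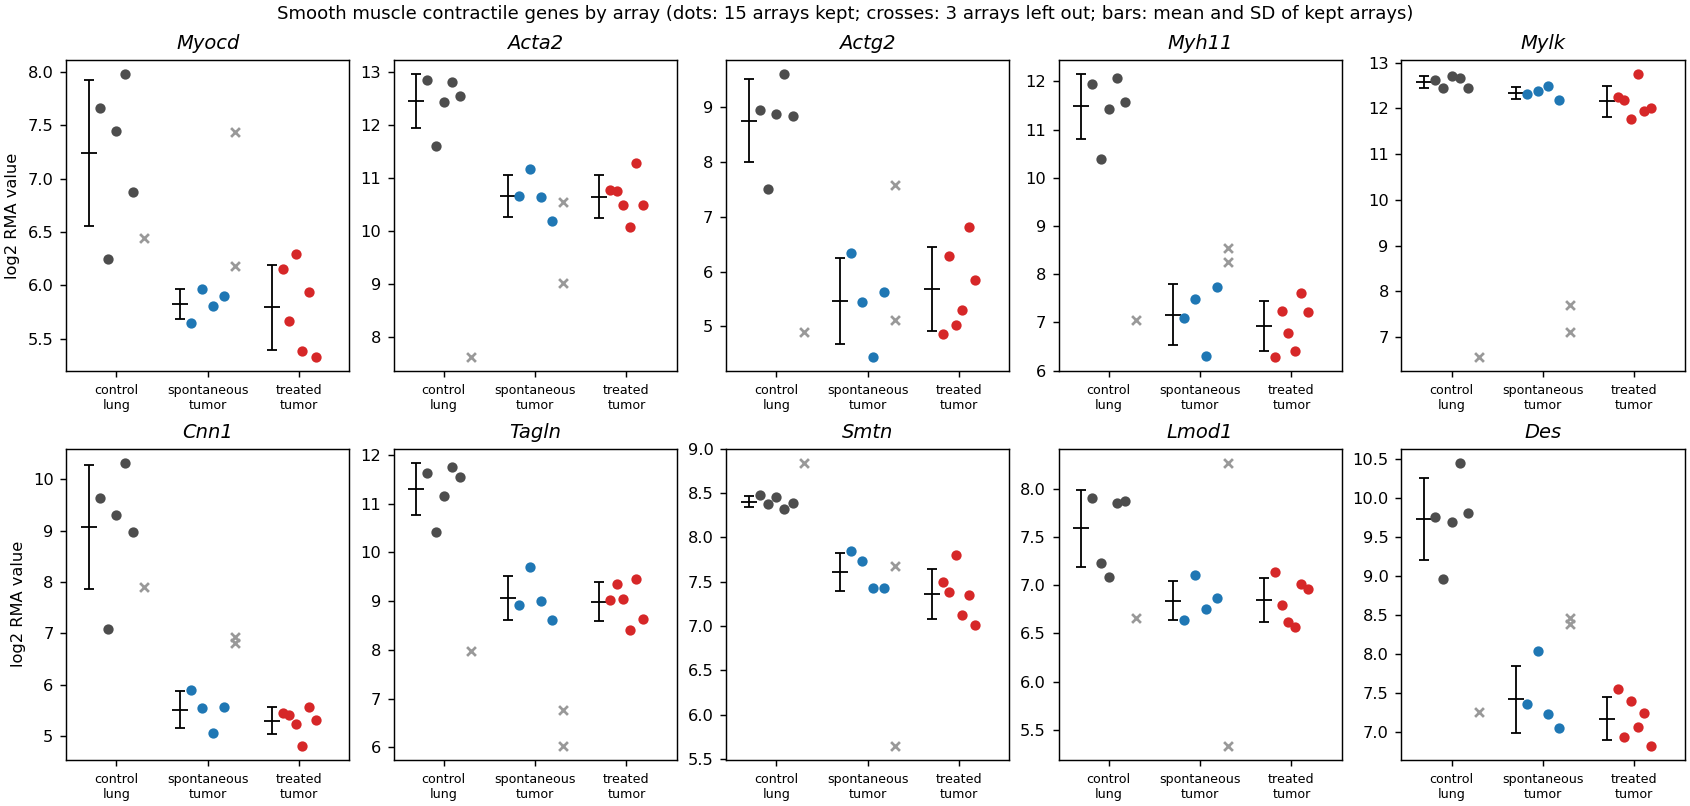
Log2 RMA value (vertical axis, with its own range in each panel) of each of the 10 genes in control lung, spontaneous tumors and treated tumors; dots are the 15 arrays kept, crosses the 3 left out, and bars the mean and SD of the kept arrays. For Myh11 the 5 control dots sit between 10.38 and 12.06 and the 10 tumor dots between 6.28 and 7.74, whereas for Mylk tumor and control dots overlap.

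Myocd encodes myocardin, the coactivator that drives the smooth muscle programme through serum response factor. It read 7.67, 6.25, 7.44, 7.98 and 6.88 in controls 1, 2, 3, 4 and 6, and 5.64, 5.96, 5.80 and 5.90 in spontaneous tumors 1 to 4. In treated tumors it ranged from 5.32 to 6.29 with a median of 5.80. All spontaneous tumors were below all controls, while the highest treated tumor lay just above control 2, the lowest control. Myocd fell in both, with changes of -1.42 ± 0.30 (limma adjusted p = 0.0019) and -1.45 ± 0.27 (adjusted p = 0.000537). Its other probe set, 1425808_a_at, changed by -0.51 and -0.48 (limma adjusted p = 0.0490 and 0.0343 over all probe sets). The means of that probe set were 5.22 in controls, 4.71 in spontaneous and 4.73 in treated tumors. Both tumor means lay below the lower quartile of all probe sets, 5.04 to 5.20 on the kept arrays, and the control mean lay near it. At such levels this probe set is only a weak check on the fall of Myocd. Over all 18 arrays the change of the first Myocd probe set in spontaneous tumors was -0.96, with a limma adjusted p of 0.190.

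The actin genes of the list, Acta2 for vascular and Actg2 for visceral smooth muscle, both fell. Acta2 read 12.85, 11.60, 12.43, 12.81 and 12.53 in the controls and 10.65, 11.17, 10.64 and 10.19 in the spontaneous tumors. Treated tumors ranged from 10.07 to 11.29, with a median of 10.62. Every tumor was below every control, and the gap was narrowest between treated tumor 5 and control 2. Acta2 fell, changing by -1.78 ± 0.27 in spontaneous tumors, or 3.43-fold lower (limma adjusted p = 0.000172), and by -1.80 ± 0.25 in treated tumors, or 3.48-fold lower (adjusted p = 4.55e-05). The name of its probe set, 1416454_s_at, carries the suffix for probes shared by transcripts of several genes, so the signal of other actins cannot be separated. Actc1, the cardiac alpha-actin and a close relative in sequence, went from a mean of 10.45 in controls to 4.39 in spontaneous and 4.04 in treated tumors, and its part in the Acta2 value was not tested. The other Acta2 probe sets, 1456658_at and 1444105_at, changed by -0.74 and -0.99 in spontaneous tumors and by -0.72 and -0.52 in treated tumors, the last not past the threshold (limma adjusted p = 0.110 over all probe sets). Over all 18 arrays neither Acta2 change was called, at -1.27 and -1.0.

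Actg2 read 8.94, 7.51, 8.87, 9.60 and 8.83 in the controls and 6.34, 5.45, 4.44 and 5.62 in the spontaneous tumors. In the treated tumors it spanned 4.87 to 6.82 around a median of 5.57. No tumor reached the lowest control, although the tumors themselves spread over more than 2 log2 units. The change was -3.29 ± 0.47 in spontaneous tumors, or 9.78-fold lower (limma adjusted p = 8.68e-05), and -3.06 ± 0.42 in treated tumors, or 8.37-fold lower (adjusted p = 4.62e-05). With the 3 poor arrays included, Actg2 kept its call in treated tumors at -2.42 and lost it in spontaneous tumors at -2.35 (limma adjusted p = 0.0550).

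Myh11, the smooth muscle myosin heavy chain and the most specific marker of the lineage in the list, had the largest change of the 10. Controls read 11.95, 10.38, 11.43, 12.06 and 11.58, and spontaneous tumors 7.09, 7.49, 6.30 and 7.74. Treated tumors read from 6.28 to 7.61 with a median of 7.0. The gap between the highest tumor and the lowest control was wider than the spread within either group. Myh11 fell, changing by -4.32 ± 0.37 in spontaneous tumors, or 20.0-fold lower (limma adjusted p = 9.03e-07), and by -4.56 ± 0.33 in treated tumors, or 23.5-fold lower (adjusted p = 1.15e-07). It ranked 46 and 47 from the deepest change among the 18193 genes. Its other probe set, 1418122_at, changed by -0.88 ± 0.14 and -0.80 ± 0.13, in the same direction and several times smaller.

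Mylk encodes myosin light chain kinase, which switches smooth muscle contraction on, and also a long form made by endothelium and other cells. It read 12.63, 12.45, 12.70, 12.67 and 12.45 in the controls, 12.31, 12.37, 12.49 and 12.18 in the spontaneous tumors, and 11.77 to 12.75 with a median of 12.10 in the treated tumors. Groups overlapped, and treated tumor 4 lay above every control. Mylk changed by -0.24 ± 0.16 in spontaneous tumors, not past the threshold (limma adjusted p = 0.269, interval -0.58 to 0.10), and fell by 0.43 ± 0.14 in treated tumors (adjusted p = 0.0294). This last call was lost when control 1, 3 or 4 or treated tumor 3, 5 or 6 was left out, with adjusted p = 0.0584 to 0.0691, and over all 18 arrays the change was 0.58. The 95% interval of the Mylk change in treated tumors, -0.74 to -0.12, lay apart from that of Myh11, -5.26 to -3.85. Its other probe sets, 1425505_at and 1425504_at, gave -0.27 and -0.33 in spontaneous and -0.49 and -0.55 in treated tumors, of which only the last passed the threshold (limma adjusted p = 0.0231 over all probe sets). Which isoform each probe set reads was not examined here.

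**Figure D2:**
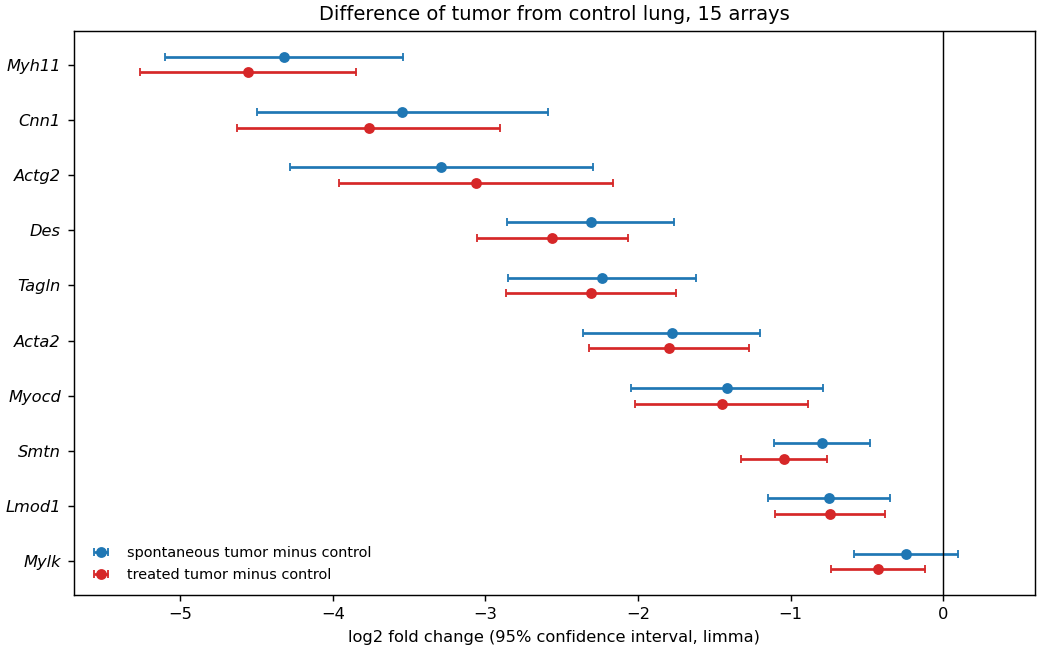
Log2 fold change of tumor minus control (horizontal axis) with its 95% confidence interval from limma for the 10 genes, in spontaneous (blue) and treated tumors (red), over 15 arrays. Myh11 lies lowest at -4.32 and -4.56, Mylk nearest to 0 at -0.24 and -0.43, and the blue and red intervals of each gene overlap.

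Among the genes for actin-binding proteins, Cnn1 and Tagln fell most. Cnn1 encodes calponin, which restrains actin-activated myosin. It read 9.62, 7.09, 9.30, 10.32 and 8.98 in the controls, 5.91, 5.54, 5.05 and 5.57 in the spontaneous tumors, and 4.81 to 5.57 with a median of 5.36 in the treated tumors. The tumors lay close together below all controls, while control 2 read well under the other controls. Cnn1 fell, changing by -3.54 ± 0.45 in spontaneous tumors (limma adjusted p = 3.15e-05) and by -3.77 ± 0.40 in treated tumors (adjusted p = 4.70e-06), or 11.7-fold and 13.6-fold lower.

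Tagln encodes transgelin, or SM22 alpha, an early marker of smooth muscle differentiation that binds actin. Its values were 11.63, 10.42, 11.16, 11.75 and 11.54 in the controls, 8.93, 9.70, 9.0 and 8.62 in the spontaneous tumors, and 8.41 to 9.47 with a median of 9.03 in the treated tumors. All 10 tumors were below all 5 controls. Tagln fell, changing by -2.24 ± 0.29 and -2.31 ± 0.26, or 4.71-fold and 4.95-fold lower (limma adjusted p = 3.82e-05 and 7.60e-06). In treated tumors its call was lost over all 18 arrays, at -1.75 (limma adjusted p = 0.120).

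Smtn encodes smoothelin, found in fully contractile smooth muscle, and Lmod1 encodes leiomodin, which starts new actin filaments. The controls were tightest for Smtn, at 8.47, 8.38, 8.46, 8.32 and 8.38, with spontaneous tumors at 7.85, 7.73, 7.43 and 7.43 and treated tumors from 7.01 to 7.80 (median 7.37). The groups did not overlap, and Smtn fell, changing by -0.79 ± 0.15 and -1.04 ± 0.13, or 1.73-fold and 2.06-fold lower (limma adjusted p = 0.000777 and 2.24e-05). Lmod1 read 7.91, 7.23, 7.09, 7.85 and 7.87 in the controls, 6.64, 7.11, 6.75 and 6.87 in the spontaneous tumors, and 6.57 to 7.14 (median 6.88) in the treated tumors. Here the highest tumors overlapped with control 3, the lowest control. Lmod1 fell in both, at -0.75 ± 0.19 and -0.74 ± 0.17 (limma adjusted p = 0.00669 and 0.00282). Over all 18 arrays neither Lmod1 change was called, with adjusted p = 0.558 and 0.455.

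Des encodes desmin, the intermediate filament protein that links contractile units in all muscle types. It read 9.76, 8.97, 9.70, 10.45 and 9.80 in the controls, 7.36, 8.03, 7.24 and 7.06 in the spontaneous tumors, and 6.83 to 7.55 with a median of 7.16 in the treated tumors. All tumors were below all controls, with spontaneous tumor 2 the highest of them. Des fell, changing by -2.31 ± 0.26 and -2.56 ± 0.23, or 4.96-fold and 5.90-fold lower (limma adjusted p = 9.65e-06 and 8.41e-07). Its second probe set, 1426732_at, changed by -0.37 ± 0.17, not past the threshold, and by -0.68 ± 0.16 (limma adjusted p = 0.113 and 0.00299 over all probe sets).

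Within the groups, the same samples tended to be low or high for several genes. Control 2 was the lowest control for 7 of the 10 genes and control 4 the highest for 6. Control 2 lay at a median of -0.86 from the control mean over the 10 genes, and control 4 at 0.51. In control 2 the mean level of the ciliated cell markers was 8.76, the lowest among controls at 8.76 to 10.27, and that of the fibroblast markers was 10.38, the highest at 9.14 to 10.38. Without control 2, left out here after the data were seen, the number of genes lower in tumors without overlap stayed at 8 for spontaneous and went from 7 to 8 for treated tumors, with Mylk and Lmod1 overlapping in both. Spontaneous tumor 2 was the highest of its group for 5 genes and treated tumor 5 for 5, whereas treated tumor 4 was the lowest for 4. These same tumors, spontaneous 2 and treated 5, had the highest mean level of club cell markers in their groups, at 10.18 and 9.70, and of ciliated markers, at 6.54 and 6.17. Spontaneous tumor 2 was also the highest of its group for the mean of endothelial, fibroblast and mesothelial markers, at 9.14, 8.51 and 5.09. Treated tumor 5 was not the highest of its group for these, at 8.30, 7.77 and 4.73. The part of airway or other normal lung cells in these tumor values was not tested.

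**Figure D3:**
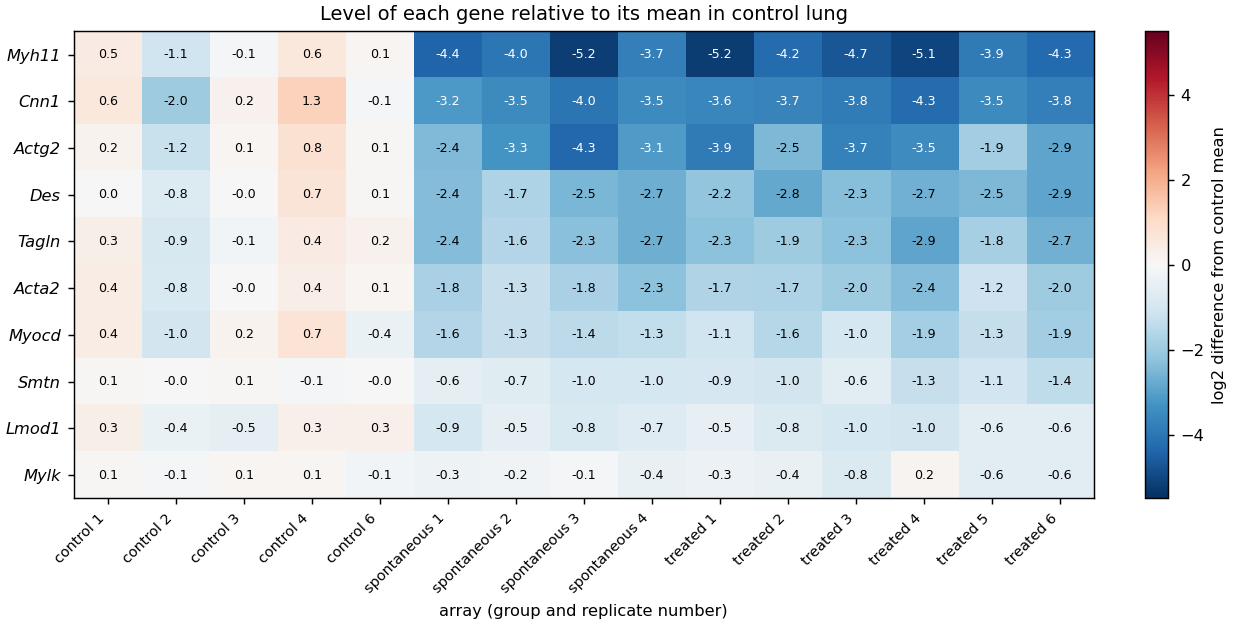
Log2 difference of each gene (rows) from its own mean over the 5 controls, in each of the 15 arrays (columns); red is above and blue below the control mean. Control 2 stands out among controls, with Cnn1 at -1.97, and the rows run from Myh11, at -5.20 in treated tumor 1, to Mylk, at 0.17 in treated tumor 4.

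Treated and spontaneous tumors were compared directly for a difference between tumors of exposed mice and spontaneous ones. By limma, 0 of the 10 genes differed at an adjusted p under 0.05, and 0 had an unadjusted p under 0.05 by limma or by an exact two-sided permutation test. Across all genes 0.055% were called in this comparison, and 1571 of 18193 had an unadjusted p under 0.05. The median difference, treated minus spontaneous, was -0.13, and the 10 values ran from -0.25 for Des to 0.23 for Actg2. The 95% interval of the difference was narrow for Smtn, -0.55 to 0.05. It was wider for Myh11, -0.99 to 0.52, and for Actg2, -0.73 to 1.18, and a difference of either sign within these bounds is compatible with the data. Both tumor groups were set against the same controls, so their changes from control are not independent of each other.

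Other genes of the contractile machinery were read from lists of 16, 21 and 12 genes, chosen with earlier results of these data known. Of 16 thin filament and actin-binding partners, 8 fell and 0 rose in spontaneous tumors, and 9 fell and 0 rose in treated tumors. The median changes were -0.66 and -0.48. Over all genes 12.9% and 15% fell, and 20.1% and 23.8% rose. Myl9, the regulatory light chain that the kinase phosphorylates, fell (-3.06 ± 0.31 and -2.73 ± 0.28). Tpm2, beta-tropomyosin, fell (-3.0 ± 0.34 and -2.75 ± 0.31). Vcl, vinculin of the membrane attachment plaques, fell (-1.34 ± 0.13 and -1.01 ± 0.12), and Synpo2, an actin-bundling protein of muscle, also fell (-1.16 ± 0.28 and -1.21 ± 0.25). The adjusted p-values of these limma tests were at most 0.00486.

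Of the genes for calcium, kinase and phosphatase control of contraction, 17 of 21 were measured. In spontaneous tumors 11 fell and 0 rose, and in treated tumors 12 fell and 0 rose, with medians of -1.0 and -0.93. The shares over all genes were 12.9% and 15% lower, and 20.1% and 23.8% higher. Ppp1r14a, the inhibitor of myosin phosphatase known as CPI-17, fell (-2.02 ± 0.19 and -2.34 ± 0.17). Prkg1, the cyclic GMP-dependent kinase that relaxes smooth muscle, fell (-1.68 ± 0.16 and -1.79 ± 0.15). Agtr1a, the angiotensin II receptor, fell (-2.53 ± 0.19 and -2.0 ± 0.18), and Pln, phospholamban of the calcium pump, also fell (-2.28 ± 0.28 and -1.93 ± 0.25). Genes that promote contraction and genes that relax it were thus both among those that fell.

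Of 12 partners and antagonists of serum response factor, 5 fell and 2 rose in spontaneous tumors and 4 fell and 3 rose in treated tumors, with medians of -0.37 and -0.073. Over all genes 12.9% and 15% fell, and 20.1% and 23.8% rose, so the number of risers is near the background. Hey2, a Notch target of vascular smooth muscle, fell (-1.14 ± 0.30 and -1.55 ± 0.27), and Klf4, a repressor of smooth muscle genes in cultured cells, also fell (-1.90 ± 0.30 and -1.44 ± 0.27). Mrtfa, a myocardin-related coactivator that actin controls, rose (0.62 ± 0.18 and 0.77 ± 0.16), and Klf5, a growth-associated factor, also rose (0.59 ± 0.18 and 0.48 ± 0.16). Srf itself, named after its values were seen, changed by -0.35 ± 0.13, not past the threshold (limma adjusted p = 0.0549), and fell by 0.32 ± 0.12 in treated tumors (adjusted p = 0.0437).

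**Figure D4:**
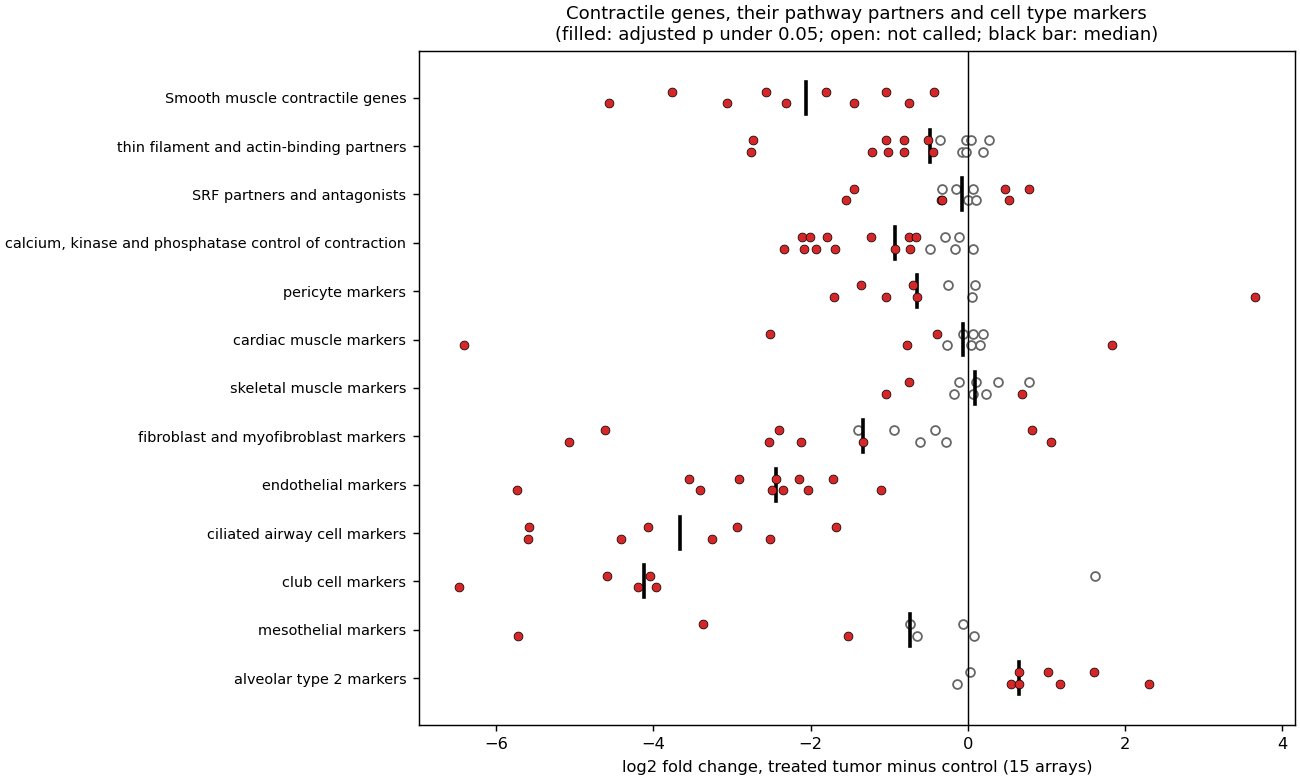
Log2 fold change of treated tumor minus control (horizontal axis) for the 10 contractile genes and each measured gene of 12 other lists (rows); filled dots have an adjusted p under 0.05, open dots do not, and black bars are list medians. The contractile genes all lie below 0 around -2.05, the pericyte row holds 1 gene far to the right, Rgs5 at 3.65, and alveolar type 2 markers lie mostly above 0.

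Pericytes share several of these proteins, and 9 of their markers were measured. In spontaneous tumors 3 fell and 1 rose, and in treated tumors 5 fell and 1 rose. Lower calls made up 12.9% and 15% of all genes, and higher calls 20.1% and 23.8%. The mean level of the 9 was 8.95 to 9.28 in controls, 8.54 to 8.95 in spontaneous and 8.64 to 9.31 in treated tumors, with Rgs5 included. The mean of the other 8, computed after the rise of Rgs5 was seen, was 9.12 to 9.54 in controls, 8.24 to 8.73 in spontaneous and 8.37 to 9.07 in treated tumors, without overlap with the controls. Taken singly, 2 of the 9 were lower than all controls in each tumor group, where 11.4% and 10.1% of all genes were. Rgs5, a regulator of G protein signalling that marks pericytes, rose (3.24 ± 0.30 and 3.65 ± 0.27), opposite to the contractile genes. Notch3, a receptor of mural cells, fell (-1.23 ± 0.19 and -1.70 ± 0.17), and Cox4i2, a pericyte-enriched subunit of cytochrome oxidase, also fell (-1.33 ± 0.17 and -1.36 ± 0.15). Cspg4, the NG2 proteoglycan, fell by 0.64 ± 0.17 in treated tumors, and its -0.36 ± 0.18 in spontaneous tumors was not past the threshold. Higd1b, named after its values were seen, fell in both groups (-1.03 ± 0.26 and -0.70 ± 0.24). Postn, named likewise, was at -0.20 ± 0.32 in spontaneous tumors, not past the threshold, and fell in treated tumors (-1.04 ± 0.29). Pdgfrb, Kcnj8 and Abcc9, named after their values were seen, were not past the threshold in either group. Pdgfrb was at -0.24 ± 0.23 and -0.25 ± 0.21, Kcnj8 at -0.80 ± 0.44 and 0.091 ± 0.40, and Abcc9 at -0.62 ± 0.38 and 0.048 ± 0.34.

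Cardiac muscle, which in mice extends along the pulmonary veins, also makes desmin. Of 11 cardiac markers 4 fell and 1 rose in each tumor group, where 12.9% and 15% of all genes fell and 20.1% and 23.8% rose. The mean level of the 11 was 6.07 to 6.64 in controls, 5.52 to 5.72 in spontaneous and 5.48 to 5.81 in treated tumors. The median change of the 11 was -0.19 and -0.064, far smaller than the changes of Actc1 and Tnnt2. Actc1 fell (-6.06 ± 0.25 and -6.41 ± 0.23) to tumor means below the lower quartile of all probe sets, 5.04 to 5.20 on the 15 arrays, where the size of a change is understated, and Tnnt2, cardiac troponin T, also fell (-2.66 ± 0.73 and -2.52 ± 0.66). Actn2, the actinin of sarcomeres, fell by 0.39 ± 0.094 in treated tumors, while Myh6, a cardiac myosin, rose (1.49 ± 0.51 and 1.83 ± 0.46) from a control mean of 4.42, also below that quartile. The atrial genes Myl7 and Sln, named after their values were seen, had control means of 4.65 and 4.15, below it as well. Of 10 skeletal muscle markers 1 was called lower and 1 higher in spontaneous, and 2 lower and 1 higher in treated tumors. These counts are near or below the shares of all genes. Their mean levels overlapped, at 5.49 to 5.78 in controls and 5.46 to 5.91 in the tumors. Myh1, counted as lower in both groups, passed the test at means of 4.48, 3.41 and 3.44. All lay below the lower quartile, so that its change cannot be read as a fall in expression. Mylpf, a fast skeletal light chain, rose (0.74 ± 0.19 and 0.68 ± 0.18). The part of cardiac muscle in the change of Des was not tested.

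Markers of other cell types of normal lung fell in part or in whole. Of all genes, 12.9% fell and 20.1% rose in spontaneous tumors, and 15% fell and 23.8% rose in treated tumors. Endothelial markers fell in 10 of 11 cases in spontaneous and 11 of 11 in treated tumors, with mean levels of 10.92 to 11.71 in controls, 8.16 to 9.14 and 8.0 to 9.13. Tmem100 fell (-5.85 ± 0.33 and -5.74 ± 0.29), and Tek, the angiopoietin receptor, also fell (-3.36 ± 0.30 and -3.55 ± 0.27). All 8 ciliated markers fell in both, with mean levels of 8.76 to 10.27 in controls, 5.43 to 6.54 and 5.45 to 6.17. Foxj1, the master regulator of motile cilia, fell (-4.27 ± 0.33 and -4.41 ± 0.30). Of 6 club cell markers 3 fell in spontaneous and 5 in treated tumors, against lower calls of 12.9% and 15% of all genes. Aldh1a1 was at -4.16 ± 0.24 and -3.96 ± 0.22, and Cldn10 at -3.63 ± 0.39 and -4.19 ± 0.35. The list had mean levels of 11.52 to 11.82 in controls, 8.19 to 10.18 and 7.24 to 9.70. Scgb3a1, named after its values were seen, went the other way at 1.97 ± 0.83 and 1.61 ± 0.75, neither past the threshold. In spontaneous tumors Scgb1a1 and Cyp2f2, named likewise, were not past the threshold, at -2.20 ± 1.03 and -1.88 ± 0.72. Fibroblast and myofibroblast markers fell in 6 of 13 cases in each and rose in 0 and 2, below the share of risers over all genes. Their mean levels were 9.14 to 10.38 in controls, 7.82 to 8.51 and 7.49 to 8.88. Tcf21, a factor of lung mesenchyme, fell (-4.95 ± 0.32 and -4.62 ± 0.28), and Col13a1, a membrane collagen, also fell (-2.13 ± 0.16 and -2.12 ± 0.15). The markers that rose in treated tumors, named after their values were seen, were Col1a1, a chain of fibrillar collagen, at 0.81 ± 0.30, and Fn1, fibronectin, at 1.06 ± 0.40. In spontaneous tumors they were at 0.57 ± 0.34 and 0.90 ± 0.44, not past the threshold. Of 7 mesothelial markers 3 fell in each, Gpm6a (-6.06 ± 0.25 and -5.72 ± 0.23) to tumor means of 3.62 and 3.96, below the lower quartile of all probe sets. The list had mean levels of 6.11 to 7.37, 4.59 to 5.09 and 4.73 to 5.65, and median changes of -0.98 and -0.73. Msln and Upk3b, named after their values were seen, were not past the threshold, at -0.98 and -0.062 and at -0.51 and -0.65. Wt1 and Lrrn4, named likewise, were not past it either, at levels near or below that quartile. Of 9 alveolar type 2 markers 7 rose in each, against 20.1% and 23.8% of all genes, with mean levels of 11.90 to 12.71, 13.25 to 13.41 and 13.05 to 13.22. Sftpa1, surfactant protein A, rose (0.70 ± 0.097 and 0.65 ± 0.088), as did Napsa, an aspartic protease of these cells (3.03 ± 0.38 and 2.31 ± 0.35). The part of these cell types in the change of the contractile genes was not tested.

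The genes whose profile was most like that of Myh11 were found by the root mean square difference, over the 15 arrays, of log2 values taken relative to each gene's control mean. The 5 nearest were Glb1l2 at 0.47, Foxj1 at 0.48, Frmpd2 at 0.48, Stk33 at 0.48 and Kndc1 at 0.49 log2 units. Their changes were -3.91 to -4.33 in spontaneous and -4.22 to -4.78 in treated tumors. This measure largely follows the size of the change from control, so it picks genes whose fall was close in size to that of Myh11. Among the 10 contractile genes Cnn1 was the nearest to Myh11, at 0.78 and rank 43 among all genes. Actg2 followed at 1.14, and Mylk, with the smallest change, was the farthest at 3.42.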

How the data were processed

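The deposited table held log2 values of 45101 probe sets on 18 arrays, made by the submitters with RMA (background correction, normalization between arrays and summary per probe set), per the submitters' processing notes; the version is not given in the sources used here. The arrays were hybridized with RNA amplified from 100 ng of total RNA, per the labels' protocols. The authors compared groups with ORIOGEN, per the series' design text, which was not run here. The number of arrays limits the precision, and the median SE of a change was 0.15 to 0.17 over all genes and 0.25 to 0.28 over the 10 contractile genes.

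Of the probe sets, 34945 carried 1 gene symbol in the platform annotation. Those with several symbols (932) or none (9160) and the 64 controls were left out, and per gene the probe set with the highest mean over the 15 kept arrays was used. The 3 poor arrays were left out by the rule that chose the genes. Limma 3.58.1 (R 4.3.3) was fitted with 1 mean per group over all 15 arrays, with Benjamini-Hochberg adjustment over 18193 genes and a threshold of 0.05. The code was tested on simulated data.

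The genes, lists and tests were chosen with earlier results of these data known. Named genes were the 10 contractile genes, from each other list the first 1 to 4 in order of p in treated tumors, and the 5 most like Myh11; others are marked as chosen later. Alternatives covered the arrays used, array weights, normalization, dim genes, probe sets, the variance model, the groups in the fit, a replicate block, actin integrity as a covariate, a 2-fold minimum, an exact permutation test and each array left out.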

Additional observations from a re-analysis of the deposited data

How the results depend on the processing

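In the 2 comparisons with control, all 20 changes of the contractile genes (12 where dim genes were left out) stayed negative under every alternative but 1, all 18 arrays, where Mylk in treated tumors was at 0.58. Over all 18 arrays limma called 5 of 10 genes (9 over 15) in spontaneous and 6 (10) in treated tumors, with median changes of -1.42 and -1.54, and 757 and 1350 of all genes (6012 and 7065 over 15). With array weights on the 18, all 20 calls were as over the 15. Leaving out genes below the median level removed 4 of the 10 genes and gave 5 and 6 members called and 4004 and 4658 genes. Averaging the probe sets of a gene gave medians of -1.26 and -1.33. A 2-fold minimum left 2421 and 2589 genes and 7 and 8 of the 10, without Smtn and Lmod1 in spontaneous and Lmod1 and Mylk in treated tumors. Single calls were lost for Mylk in treated tumors with median centring (adjusted p = 0.0641) and the replicate block (0.0924), and for Lmod1 in spontaneous tumors with the actin covariate (0.0521). The replicate block, which drops treated tumor 5, gave Mylk at -0.39, left 9 and 9 genes called and changed no other call. With an array left out, Mylk in treated tumors against control ranged from -0.55 to -0.35. The labels do not say that a number marks a shared animal, and of 13 same-numbered pairs 2 had deviations from the group means that correlated above 0.1 (range -0.15 to 0.30).

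Between treated and spontaneous tumors none of the 10 genes was called by limma under any alternative, and at most 1 had an unadjusted p under 0.05. The number of all genes called, 10 in the main analysis, was 0 over 18 arrays (1161 at an unadjusted p under 0.05), 37 with array weights on them, 5 with quantile normalization, 5 with a variance trend, 0 with only the 2 groups (1274), 0 with the replicate block (1526), 27 with the actin covariate and 0 to 28 with an array left out, leaving out any of the 15 but spontaneous tumor 4 moving it by over 1.5 times. Values near 0 changed sign. Over 18 arrays Acta2 was at 0.27, Actg2 at -0.071, Mylk at 1.46, Tagln at 0.82 and Smtn at 0.066. With array weights Acta2 and Tagln were at 0.064 and 0.053 over 18 and at 0.075 and 0.056 over 15 arrays. Lmod1 was at -0.00047 with quantile normalization and -0.12 with the actin covariate, Acta2 at 0.15 with the mean of probe sets, and Myocd, Actg2 and Lmod1 at 0.037, -0.059 and -0.079 with the replicate block. With an array left out Myocd ranged from -0.13 to 0.059, Acta2 from -0.18 to 0.15, Actg2 from -0.12 to 0.52, Tagln from -0.22 to 0.14 and Lmod1 from -0.059 to 0.096. The cause of these shifts was not tested, except that leaving out dim genes tests fewer genes. Tumor values of Actg2, Cnn1 and Myocd lay near the lower quartile of all probe sets, 5.04 to 5.20 on the 15 arrays. Those of Actc1 and Gpm6a and the control values of Myh6 lay below it. So did the mean of Hey2 in treated tumors, 4.99, and of Agtr1a in spontaneous tumors, 5.03. At such levels arrays understate a further decrease.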
